A study of Mus musculus with 12 samples.

Results

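Genes that build the extracellular matrix, attach cells to it and cut it were followed in mouse gastric organoids with and without inhibition of Wnt signalling. Members were the gene rows named as a collagen chain, a laminin alpha, beta or gamma chain, a numbered integrin alpha subunit or Itgav, a numbered integrin beta subunit, a matrix metalloprotease (MMP) or a tissue inhibitor of metalloproteases (TIMP), together with Nid1, Nid2, Hspg2 and Agrn. A minimum of 10 counts summed over the 12 libraries was required. Of 106 rows with such names, 79 met the minimum, among 21246 of the 55421 gene rows that met it. They were 9 of 11 laminin chains, 6 of 6 collagen IV chains, 27 of 38 other collagen chains, 10 of 12 integrin alpha subunits, 8 of 8 integrin beta subunits, 11 of 23 MMPs, 4 of 4 TIMPs and the 4 proteins that join the networks of the basement membrane. The 27 rows under the minimum included Col1a2 and Col3a1, chains of fibrillar collagens, with 5 counts and 1 count in all. A filter on low counts left 53 of the 79 members for testing; the other 26 are described by their counts alone.

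The organoids were 3-dimensional epithelial cultures grown from wild-type gastric glands of the corpus, the acid-secreting main chamber, or of the antrum, the part next to the duodenum. They were embedded in Matrigel, an extract rich in laminin and collagen IV, so that matrix protein surrounded every culture and only the RNA made by the cells was measured. Each region had 3 lines, numbered 8025, 8026 and 8028, and each line was sampled once per treatment, giving 4 groups of 3 libraries. The inhibited groups received XAV939, which blocks tankyrase and so stabilises axin, a brake on Wnt signalling (1 mM as labelled), without added Wnt and R-spondin and with 100 ng/mL Noggin, for 24 h from day 4 after passage; the vehicle groups received DMSO in normal medium with 50% L-WRN conditioned medium, a source of Wnt, R-spondin and Noggin. The effects of the compound and of the medium change cannot be told apart. Serum also differed, at 20% in corpus medium and 10% in antral medium, and cannot be separated from region; the values for the regions carry both. The lines are described as independent, and p-values measure the spread between them; whether corpus 8025 and antrum 8025 come from 1 mouse is not given.

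An epithelium rests on a basement membrane, a sheet in which polymerised laminin trimers and a collagen IV network are joined by nidogens, perlecan (Hspg2) and agrin (Agrn). Epithelial cells hold laminin through integrins, paired alpha and beta subunits; the pair of Itga6 and Itgb4 anchors hemidesmosomes, where laminins that hold Lama3 and Lamb3 are its main ligands. MMPs are zinc proteases that cut matrix and cell surface proteins, TIMPs block them, and Mmp7 is a classical Wnt target in intestinal tumours.

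Library totals ran from 18858022 to 31656696 counts, and members took 0.510% to 0.661% of each library. Levels are given as CPM, counts scaled to a common library size by TMM. A reading of 0 allows up to 3 counts, or 0.0889 to 0.177 CPM by library; this limit covers counting error only. Antral vehicle lines 8025 and 8028 held 17.2% and 6.87% of their counts in 4 rRNA-like gene rows, against 0.839% to 3.45% elsewhere. Fibroblast and smooth muscle markers summed to 1.69 to 3.11 CPM over 14 genes in every library, with Twist2 at 0 counts, Dcn at 1 and Lum at 3 over all 12 libraries. Only 3 of the 14 held enough counts to be tested. Of these, 0 were called in corpus after inhibition, and 1 rose and 1 fell in antrum. Endothelial, immune and glial markers summed to 15.6 to 63.5 CPM over 12 genes, most of it Cd68 and Tek, with Adgre1 at 0 counts and Lyz2 at 2. Of these 12, 5 were tested, and 1 rose and 0 fell in each region. Epithelial markers summed to 9143 to 19208 CPM over 8 genes, of which 6 rose in each region after inhibition. One more, 1 of the 8, was called lower in corpus, and 0 were in antrum. The share of all genes called higher was 15.5% in corpus and 16.3% in antrum. In these bulk libraries, fewer cells of a type and less RNA per cell cannot be told apart.

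The members with the highest levels were basement membrane proteins and their receptors. Per kilobase of exon, which allows genes to be compared, the integrin subunit Itgb1 stood first in all 4 groups, at 104.8 ± 5.26 CPM per kilobase (SD, n = 3) in corpus vehicle and 97.7 ± 3.56 in antral vehicle. In corpus vehicle it was followed by the laminin chain Lama5 at 77.4 ± 12.8, by Agrn at 66.2 ± 6.76, by Itgb4 at 51.8 ± 6.67, by Itga6 at 44.1 ± 0.570, by the membrane-type protease Mmp15 at 43.4 ± 4.06 and by Itga3 at 38.3 ± 4.36 CPM per kilobase. Ranges over the 3 lines overlapped between Lama5 and Agrn, and between neighbours from Itga6 down to Lamb3 at 29.9 ± 2.13, so that these neighbours did not differ beyond their spread. The order in antral vehicle began with Itgb1, Agrn, Lama5 and Itgb4, and each of Agrn, Lama5 and Itgb4 overlapped its neighbour among them.

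Lama5 took the largest share of member counts in 10 of the 12 libraries, and Agrn in antral inhibited lines 8026 and 8028. The collagens of interstitial tissue were near the limit: Col1a1 stood at 0.224 to 1.06 CPM, and Col5a1, Col5a2, Col6a1 and Col6a3 held too few counts to be tested. Col17a1, the collagen of hemidesmosomes in skin, held 17 counts over the 3 corpus vehicle libraries and 9 over the 3 antral ones, while the lowest of the 12 libraries held 356 CPM of Itga6 and 322 CPM of Itgb4.

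**Figure D1:**
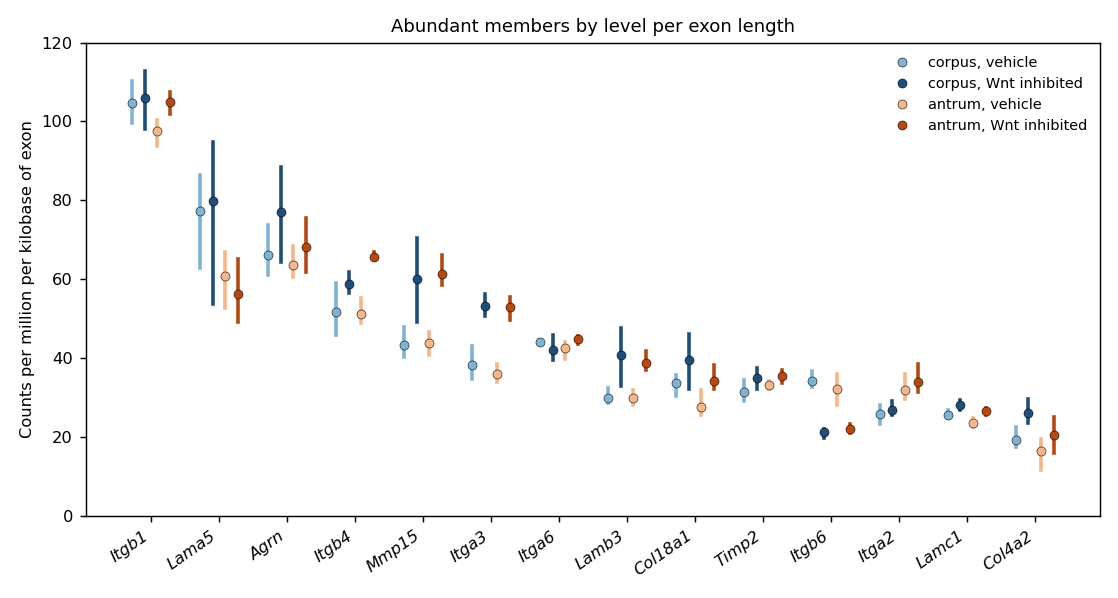
Level per exon length (CPM per kilobase, linear axis from 0) of 14 of the most abundant members; points are means of 3 lines, bars run from the lowest to the highest line, and colours give region and treatment. Itgb1 lies above the other members in each group, and Itgb6 is lower while Itga3 and Mmp15 are higher in the inhibited groups.

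The question of the first comparison was which of these genes Wnt inhibition changes in each region. In corpus 22 of the 53 members tested changed at an adjusted p under 0.05 (edgeR's quasi-likelihood test with Benjamini-Hochberg adjustment over 16152 genes), 8 up and 14 down; this is 41.5% of members tested, where 30.9% of all genes tested were called. In antrum 25 changed, 10 up and 15 down, or 47.2%, where 29.7% of all genes were called. Rises took 15.1% of members in corpus beside 15.5% of all genes, and 18.9% in antrum beside 16.3%. Falls took 26.4% of members in corpus beside 15.4% of all genes, and 28.3% in antrum beside 13.4%. The median log2 change of members was -0.09 in corpus and -0.11 in antrum, beside -0.04 for all genes in both.

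The line number pairs vehicle and inhibited libraries of a region, and with the line as a block 37 members changed in corpus (17 up, 20 down) and 36 in antrum (14 up, 22 down). That fit called 43.5% of all genes in corpus, 19.8% higher and 23.7% lower, and 40.8% in antrum, 20.6% higher and 20.2% lower. With library totals in place of TMM scaling, which moved the median of all genes in corpus to -0.19, 5 members rose and 16 fell in corpus, and all genes there went from 2498 up and 2487 down to 1338 up and 3727 down. In antrum that scaling gave 8 members up and 15 down, and all genes went from 2636 up and 2158 down to 1772 up and 2223 down.

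By role, of 10 integrin alpha subunits tested, 3 rose in each region and the other 7 did not pass. Of 7 laminin chains, 2 rose and 1 fell in corpus and 3 rose in antrum. Of 11 collagen chains outside type IV, 5 fell in corpus and 8 in antrum. Of 8 MMPs, 2 rose and 3 fell in each region. Among all genes tested, calls higher made up 15.5% in corpus and 16.3% in antrum, and calls lower 15.4% and 13.4%. Falls took 45.5% of the 11 collagen chains in corpus and 72.7% in antrum. These counts are from the fit without the block. With the line as a block, Itga9 and Lamb1 were called lower as well in both regions. The block also called Itga5, Col2a1 and Col20a1 lower in corpus and Lamb2 and Mmp14 lower in antrum. Lama3, Col18a1 and Mmp23 were then called higher in both. The families are small, and whether any of them differed from all genes was not tested.

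The same 8 members were called higher in both regions, all 8 of the corpus rises (100%) and 80% of the antral ones, among them Itga1, Itga3, Itga7, Lamb3, Mmp15, Mmp28 and Nid1. The same 12 were called lower in both, 85.7% of the corpus falls and 80% of the antral ones: Col4a6, Col9a3, Col11a2, Col14a1, Col16a1, Col27a1, Itgb6, Itgb8, Mmp7, Mmp11, Mmp24 and Timp3. No member was called in opposite directions. Of all genes tested, 30.9% were called in corpus, 29.7% in antrum and 0.00619% for a difference in response. The calls shared between regions were not counted over all genes, so that the sharing among members has no background beside it.

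**Figure D2:**
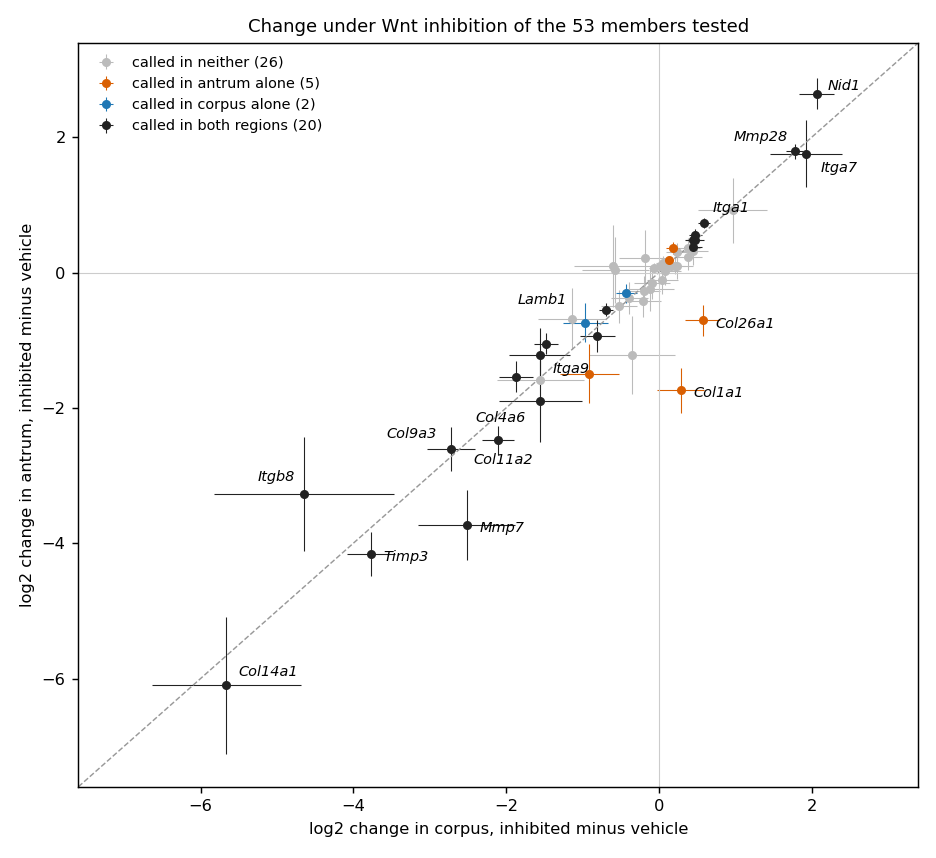
log2 change after Wnt inhibition in corpus (x axis) against antrum (y axis) for the 53 members tested; bars are standard errors of the fit, colours show where the adjusted p was under 0.05, and the dashed line marks equal change. The 20 members called in both regions, from Nid1 at the top right to Col14a1 at the bottom left, rise or fall on both axes, while Col26a1 and Col1a1 lie below the dashed line.

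Nid1, nidogen-1, the linker between laminin and collagen IV networks, had the largest rise. It stood at 7.17, 3.89 and 4.63 CPM in corpus vehicle lines 8025, 8026 and 8028 and at 25.7, 17.3 and 22.9 CPM in the same lines after inhibition. In antrum it went from 6.07, 7.12 and 5.13 CPM to 37.8, 43.7 and 33.7 CPM. Every inhibited library lay above every vehicle library of either region, and each line rose at least 3.58-fold. The log2 change was 2.07 ± 0.23 (SE) in corpus (edgeR adjusted p = 6.44e-05) and 2.65 ± 0.23 in antrum (adjusted p = 1.31e-05). Its paralog Nid2 did not pass the test in either region, at -0.19 ± 0.21 (edgeR adjusted p = 0.52) and -0.27 ± 0.21 (adjusted p = 0.369). Of the exon bases of Nid2, 8.45% overlap Rtraf on the other strand, which held 28356 counts beside 7602. Nid1 (ENSMUSG00000005397) lies on chromosome 13 from 13437551 to 13512269 of GRCm38, and counts are summed over its exons.

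Mmp28, epilysin, a secreted protease of epithelia, rose by nearly the same amount in both regions. Its values were 8.33, 7.56 and 8.39 CPM in corpus vehicle and 29.1, 30.9 and 23.6 CPM after inhibition, and 7.14, 7.22 and 8.43 CPM in antral vehicle and 27.0, 25.5 and 26.5 CPM after inhibition. Vehicle and inhibited libraries were separated in both regions. The log2 change was 1.78 ± 0.11 in corpus (edgeR adjusted p = 2.13e-06) and 1.79 ± 0.11 in antrum (adjusted p = 1.79e-06), the smallest adjusted p among members in both comparisons. Of its exon bases, 12% overlap 1700020L24Rik on the other strand, a gene with 949 counts beside 5496 for Mmp28. No source used here states whether counting used strand, and reads from overlapping genes cannot be told apart.

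Mmp15, a membrane-anchored protease and the most abundant MMP per length, rose by less. It went from 259, 225 and 218 CPM to 380, 329 and 265 CPM in corpus and from 237, 220 and 251 CPM to 357, 316 and 321 CPM in antrum. All inhibited libraries stood above the vehicle libraries of their region. The log2 change was 0.47 ± 0.12 in corpus (edgeR adjusted p = 0.0109) and 0.49 ± 0.12 in antrum (adjusted p = 0.00932). Leaving out line 8026 ended both calls (edgeR adjusted p = 0.103 and 0.0637). Leaving out line 8025 ended the antral one (0.09), as did leaving out vehicle lines 8025 and 8028. The corpus call was lost with library totals as scaling (0.0633) and on the 6 corpus libraries alone.

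Among integrins, the laminin-binding alpha subunits Itga3 and Itga7 and the collagen-binding subunit Itga1 rose. Itga3 was at 246, 213 and 197 CPM in corpus vehicle and 321, 303 and 289 CPM after inhibition, and at 220, 201 and 194 CPM and then 317, 283 and 305 CPM in antrum. The groups did not overlap in either region, and the log2 change was 0.48 ± 0.09 (edgeR adjusted p = 0.00161) and 0.56 ± 0.09 (adjusted p = 0.000606). Itga1 went from 24.5, 23.8 and 26.8 CPM to 40.3, 34.5 and 38.1 CPM in corpus and from 29.8, 30.9 and 33.1 CPM to 54.2, 52.9 and 49.0 CPM in antrum. Its 12 values fell into 4 steps without overlap, corpus vehicle lowest and antral inhibited highest. The fitted log2 change came to 0.59 ± 0.08 in corpus (edgeR adjusted p = 0.000231) and 0.73 ± 0.08 in antrum (adjusted p = 4.8e-05).

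Itga7, known best as a laminin receptor of muscle, rose in every line but to unequal levels. Corpus lines 8025 and 8026 went from 16 and 13.9 CPM to 66.9 and 59.5 CPM, whereas corpus line 8028 went from 6.96 to 14.5 CPM. The antral lines went from 8.20, 5.54 and 8.93 CPM to 29.3, 21.8 and 25.1 CPM. In corpus the inhibited value of line 8028 lay within the vehicle range, so that the groups overlapped; in antrum they did not. edgeR put the log2 change at 1.93 ± 0.47 in corpus (edgeR adjusted p = 0.00982) and 1.76 ± 0.49 in antrum (adjusted p = 0.0194). It was no longer called in corpus without both libraries of line 8026 (edgeR adjusted p = 0.0822), nor in antrum without both libraries of line 8025, 8026 or 8028 (adjusted p = 0.115, 0.107 and 0.076) or without vehicle line 8026 (0.0731) or inhibited line 8025 (0.0591), or without vehicle lines 8025 and 8028 (0.103). With no filter on low counts neither region passed (edgeR adjusted p = 0.0501 and 0.0816), nor did corpus fitted on its 6 libraries alone (0.0543) or antrum in limma-voom (0.0679).

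Among laminin chains typical of hemidesmosomes, Lamb3 rose by a small amount in both regions. It was at 214, 190 and 189 CPM in corpus vehicle and 316, 276 and 217 CPM after inhibition, and at 211, 186 and 196 CPM and then 277, 245 and 247 CPM in antrum. The groups did not overlap in either region, and corpus line 8028 rose least. Lamb3 changed by 0.45 ± 0.12 in corpus (adjusted p = 0.0137) and 0.37 ± 0.12 in antrum (adjusted p = 0.0328). Lama3, an alpha chain that pairs with Lamb3, had values that did not pass, 0.39 ± 0.15 in corpus (edgeR adjusted p = 0.0694) and 0.37 ± 0.15 in antrum (adjusted p = 0.0812). Lama3 passed in both regions once lines were blocked (edgeR adjusted p = 0.00137 and 0.00166) and in DESeq2 (adjusted p = 0.0339 and 0.045). The antral call of Lamb3 was lost when any 1 antral library other than vehicle line 8025 was left out (edgeR adjusted p = 0.0532 to 0.118), and with upper-quartile or library-total scaling (0.0722 and 0.0643). The corpus call was lost without vehicle line 8026 (edgeR adjusted p = 0.0522), without both libraries of that line (0.124), with library totals as scaling (0.0699) or on the 6 corpus libraries alone (0.0626).

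The other laminin chains gave no common direction. Lama5 and Lamc1, the abundant chains of laminin-511, stood at 715 to 984 CPM and 205 to 222 CPM in corpus vehicle and changed by 0.04 ± 0.20 (edgeR adjusted p = 0.896) and 0.13 ± 0.06 (adjusted p = 0.13). In antrum Lama5 changed by -0.11 ± 0.20 (edgeR adjusted p = 0.716), and Lamc1 rose by 0.19 ± 0.06 (adjusted p = 0.037), a call that was lost without any 1 of the antral libraries except vehicle line 8025 (adjusted p = 0.0504 to 0.113), with library totals (0.295) or upper quartiles (0.138) as scaling, or with no filter on low counts (0.0686). Lamb2 fell in corpus, from 74.4, 68.2 and 60.4 CPM to 56.3, 54.0 and 41.2 CPM, by 0.42 ± 0.14 on the log2 scale (edgeR adjusted p = 0.0366). Leaving out vehicle line 8025 or 8026, or inhibited line 8026 or 8028, ended the call (adjusted p = 0.0681 to 0.155). The call was also lost without both libraries of line 8025, 8026 or 8028, and on the 6 corpus libraries alone. In antrum Lamb2 had a value of -0.30 ± 0.14 (edgeR adjusted p = 0.119) and passed once lines were blocked (0.00661). Lamb1 had a value of -0.68 in antrum (edgeR adjusted p = 0.278) and was called lower once lines were blocked (0.00378). Its corpus values, also lower after inhibition, are given below by line. Lama4, a chain of vessel and muscle laminins, was not tested; its counts over 3 libraries went from 40 to 1 in corpus, a 31.2-fold lower level (95% counting interval 5.29 to 1263); antral counts went from 13 to 1 (14.7-fold, 2.21 to 626).

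Of the hemidesmosome partners Itga6 and Itgb4 and the common subunit Itgb1, Itgb4 was called, in antrum. Itga6 ranged from 356 to 413 CPM over the 12 libraries and changed by -0.07 ± 0.07 in corpus (edgeR adjusted p = 0.481) and 0.07 ± 0.07 in antrum (adjusted p = 0.419). Itgb1 ranged from 382 to 460 CPM, with changes of 0.02 ± 0.07 (edgeR adjusted p = 0.871) and 0.10 ± 0.07 (adjusted p = 0.253). Itgb4 rose in antrum, from 386, 343 and 345 CPM to 470, 456 and 456 CPM, by 0.36 ± 0.09 (edgeR adjusted p = 0.00887), and had a value of 0.18 ± 0.09 in corpus (adjusted p = 0.138; 0.03 once lines were blocked). Leaving out both antral libraries of line 8026 or of line 8028 ended that call (edgeR adjusted p = 0.0769 and 0.0678), as did leaving out vehicle lines 8025 and 8028 (0.051).

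Itgb6, the subunit of the epithelial integrin that activates latent TGF-beta, fell in both regions. It went from 260, 237 and 231 CPM to 155, 140 and 156 CPM in corpus and from 256, 232 and 200 CPM to 166, 157 and 148 CPM in antrum. Every inhibited library lay below every vehicle library, and the log2 change was -0.69 ± 0.09 (edgeR adjusted p = 0.000197) and -0.54 ± 0.09 (adjusted p = 0.000941). Its partner Itgav was at 126 to 143 CPM in corpus vehicle and 140 to 162 CPM in antral vehicle and changed by 0.06 ± 0.10 (edgeR adjusted p = 0.686) and 0.14 ± 0.10 (adjusted p = 0.295).

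Itgb8, another partner of Itgav, was called lower from few counts. Its counts fell from 42 to 1 over the corpus libraries, 32.8-fold (95% counting interval 5.57 to 1324), and from 55 to 6 over the antral ones, 10.4-fold (4.48 to 29.5). The edgeR adjusted p was 0.0112 and 0.0124. The antral call ended when inhibited line 8026 was dropped (edgeR adjusted p = 0.0517), when line 8025 or 8026 was dropped whole (0.0688 and 0.0959) and when vehicle lines 8025 and 8028 were (0.0791).

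Itga9, a receptor for tenascin and osteopontin, had large values that did not pass. It went from 11.1, 9.89 and 17.3 CPM to 2.10, 2.44 and 8.43 CPM in corpus and from 6.55, 6.16 and 3.26 CPM to 2.92, 1.75 and 0.547 CPM in antrum. Each line was lower after inhibition. On the log2 scale this was -1.55 ± 0.57 (edgeR adjusted p = 0.0588) and -1.59 ± 0.61 (adjusted p = 0.0719). With the line as a block it passed in both regions (adjusted p = 0.00186 and 0.0046), as it did in DESeq2 (0.0232 and 0.0226) and, in corpus, in limma-voom (0.0172).

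**Figure D3:**
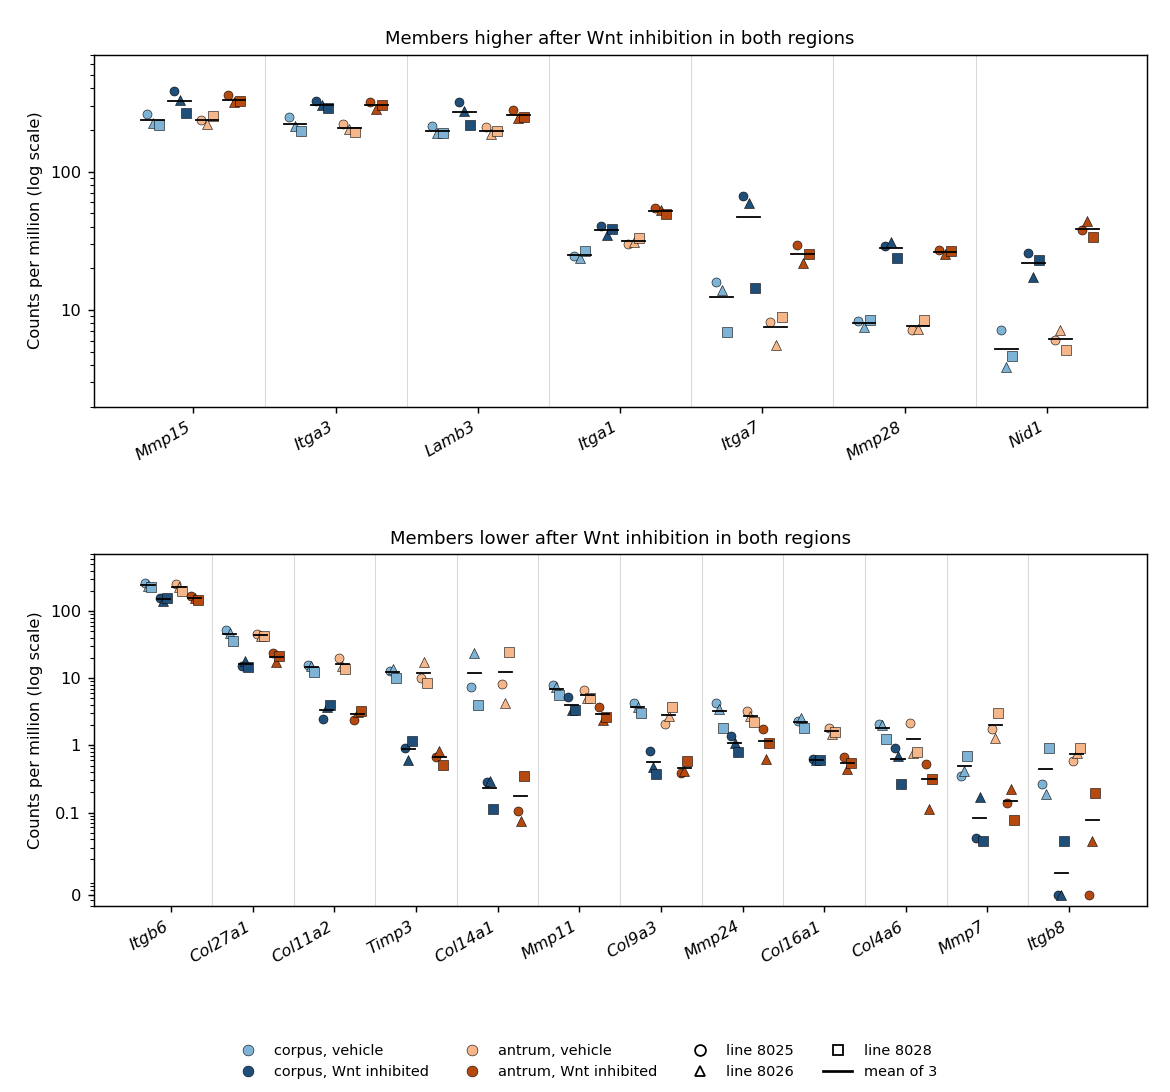
CPM (log axis, with libraries at 0 drawn at the mark labelled 0) in each of the 12 libraries for 7 members higher (top) and the 12 lower (bottom) in both regions; colours give region and treatment, symbols the line, and black bars the mean of 3 lines. Nid1, Mmp28, Timp3, Col11a2 and Col14a1 show gaps between vehicle and inhibited libraries in both regions, and Itga7 in corpus shows line 8028 apart from the other lines.

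Timp3 fell in every line of both regions. It binds to matrix and inhibits MMPs and ADAM proteases. It stood at 12.9, 13.8 and 10.2 CPM in corpus vehicle and at 0.907, 0.599 and 1.17 CPM after inhibition, and at 10.2, 17.2 and 8.52 CPM in antral vehicle and 0.669, 0.821 and 0.508 CPM after inhibition. Levels in each line were 8.76-fold to 23.0-fold lower after inhibition. This was a log2 change of -3.77 ± 0.32 in corpus (edgeR adjusted p = 1.05e-05) and -4.16 ± 0.33 in antrum (adjusted p = 5.95e-06). Of its exon bases, 21.3% overlap Syn3 on the other strand, which held 332 counts beside 2194 for Timp3.

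The other TIMPs differed in level and in size of change. Timp2, the most abundant, was at 113 to 134 CPM in corpus vehicle and 125 to 146 CPM after inhibition, with a change of 0.16 ± 0.08 (edgeR adjusted p = 0.145; 0.0242 once lines were blocked) there and 0.10 ± 0.08 (adjusted p = 0.367) in antrum. Timp1 fell in corpus from 2.82, 1.79 and 2.76 CPM to 1.15, 0.985 and 1.62 CPM, by 0.96 ± 0.29 in log2 units (edgeR adjusted p = 0.0272), and had a value of -0.74 ± 0.29 in antrum (adjusted p = 0.0754; 0.0128 once lines were blocked). The corpus call was lost without any 1 of vehicle lines 8025 and 8028 and inhibited lines 8025 and 8026 (adjusted p = 0.0832 to 0.107). It was also lost without both libraries of line 8025 or 8026, and on the 6 corpus libraries alone. Timp4 held 16 counts in all and was not tested.

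Col14a1, a collagen that associates with fibrils, varied widely among vehicle lines. It was at 7.53, 24.1 and 4.06 CPM in corpus vehicle and 8.26, 4.28 and 24.3 CPM in antral vehicle, so that line 8026 was high in corpus and line 8028 in antrum. After inhibition it stood at 0.288, 0.300 and 0.113 CPM in corpus and 0.106, 0.0746 and 0.352 CPM in antrum, where the counts were 17 and 14 over 3 libraries. The fitted log2 change came to -5.66 ± 0.98 (edgeR adjusted p = 0.00123) and -6.10 ± 1.0 (adjusted p = 0.000941). Within lines the levels were 26.1-fold to 80.3-fold lower.

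Col11a2 and Col27a1 also fell in both regions. Col11a2, a chain of fibrillar collagen XI, went from 15.9, 15.2 and 12.3 CPM to 2.47, 3.68 and 3.95 CPM in corpus and from 20.2, 15.3 and 13.7 CPM to 2.36, 3.17 and 3.28 CPM in antrum, a log2 change of -2.10 ± 0.21 (edgeR adjusted p = 3.35e-05) and -2.47 ± 0.21 (adjusted p = 1.13e-05). Col27a1, a fibrillar collagen of cartilage, went from 53.2, 46.8 and 35.3 CPM to 15.4, 18.3 and 14.9 CPM in corpus and from 45.4, 43.0 and 42.1 CPM to 24.2, 17.5 and 21.3 CPM in antrum. Both were separated between vehicle and inhibited libraries in each region. The change of Col27a1 was -1.48 ± 0.15 (edgeR adjusted p = 4.5e-05) and -1.05 ± 0.15 (adjusted p = 0.000392).

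The collagen IX chains, which decorate collagen II fibrils, were all lower in count after inhibition. Col9a3, the only one tested, changed by -2.72 ± 0.31 in corpus (edgeR adjusted p = 8.48e-05) and -2.61 ± 0.32 in antrum (adjusted p = 0.000128), from 2.06 to 4.21 CPM over the 6 vehicle libraries to 0.376 to 0.824 CPM over the inhibited ones. Col9a2 went from 22 counts to 1 in corpus, 17.2-fold (95% counting interval 2.77 to 708). In antrum it went from 15 counts to 0, where the 95% counting interval began at 4.07-fold. Col9a1 went from 10 counts to 0 in corpus, with an interval from 1.75-fold up, and from 11 to 1 in antrum (12.5-fold, 1.81 to 537).

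Col16a1 fell on the log2 scale by 1.87 ± 0.22 (corpus) and 1.54 ± 0.23 (antrum; edgeR adjusted p = 9.32e-05 and 0.00042). Col4a6, the sparse chain that pairs with Col4a5, was called lower by 1.55 ± 0.54 and 1.89 ± 0.61 (edgeR adjusted p = 0.0495 and 0.0356), and lost the call under 10 of 18 alternatives in corpus and 8 of 19 in antrum. Col2a1, the main cartilage collagen, fell in antrum by 1.49 ± 0.43 on the log2 scale (edgeR adjusted p = 0.0231), a call that ended when vehicle line 8025 or 8026, or inhibited line 8026 or 8028, was dropped (adjusted p = 0.0501 to 0.0861). In corpus Col2a1 had a value of -0.91 ± 0.39 (edgeR adjusted p = 0.0973; 0.0144 once lines were blocked).

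The abundant collagens did not pass the test in the reported fit. Col4a1 and Col4a2, which lie head to head and form the common collagen IV trimer, stood at 95.6 to 200.3 CPM and 76.3 to 195.2 CPM over the 12 libraries. They changed by 0.24 ± 0.20 and 0.44 ± 0.20 in corpus (edgeR adjusted p = 0.393 and 0.123) and by 0.10 ± 0.20 and 0.33 ± 0.20 in antrum (adjusted p = 0.736 and 0.258). With the line as a block Col4a1 in corpus and Col4a2 in both regions were called higher (adjusted p = 0.00968, 0.000304 and 0.00192). Col18a1, the source of endostatin, changed by 0.23 ± 0.14 and 0.31 ± 0.14 (edgeR adjusted p = 0.221 and 0.114) and was called with the block (adjusted p = 0.0171 and 0.0033). Agrn and Hspg2 changed by 0.22 ± 0.12 and -0.12 ± 0.32 in corpus (edgeR adjusted p = 0.191 and 0.812) and by 0.10 ± 0.12 and -0.25 ± 0.32 in antrum (adjusted p = 0.558 and 0.596). Once lines were blocked, Agrn passed in corpus as higher and Hspg2 in antrum as lower (edgeR adjusted p = 0.0219 and 0.0352).

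Mmp7, Mmp11 and Mmp24 fell in both regions. Mmp7, matrilysin, an epithelial protease, stood at 0.356, 0.415 and 0.699 CPM in corpus vehicle and 1.77, 1.29 and 3.05 CPM in antral vehicle. After inhibition it was at 0.0412, 0.171 and 0.0376 CPM in corpus and 0.141, 0.224 and 0.0782 CPM in antrum, which is 6 and 12 counts over 3 libraries. edgeR put the log2 change at -2.52 ± 0.64 in corpus (edgeR adjusted p = 0.0113) and -3.73 ± 0.52 in antrum (adjusted p = 0.000293); leaving out line 8025 or 8028 ended the corpus call (adjusted p = 0.0522 and 0.083).

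Mmp11, stromelysin-3, fell by 0.81 ± 0.23 and 0.94 ± 0.24 in log2 units (edgeR adjusted p = 0.0205 and 0.0115) from 5.05 to 7.94 CPM over the vehicle libraries, and lost the call under 5 of 18 alternatives in corpus and 4 of 19 in antrum. Of its exon bases, 5.58% overlap Chchd10 on the other strand, which held 18563 counts beside 1595. Mmp24, a membrane-type protease, fell by 1.56 ± 0.40 and 1.21 ± 0.40 (edgeR adjusted p = 0.0112 and 0.0386), and 13.6% of its exon bases overlap BC029722 on the other strand, which held 7083 counts beside 674; the call was lost under 3 of 18 alternatives in corpus, each without a library of line 8025 or 8026, and under 8 of 19 in antrum. Mmp14, the membrane-type protease that activates pro-Mmp2, was at 63.2 to 128 CPM over the 12 libraries and changed by -0.09 ± 0.24 and -0.15 ± 0.24 (edgeR adjusted p = 0.816 and 0.657), and was called lower in antrum once lines were blocked (0.0409). Mmp23, a membrane-bound protease, had values of 0.97 ± 0.45 and 0.92 ± 0.48 (edgeR adjusted p = 0.127 and 0.17) and was called higher in both regions once lines were blocked (0.0151 and 0.0167). Mmp17, anchored to the membrane by a lipid, had values of -0.35 ± 0.56 and -1.22 ± 0.58 (edgeR adjusted p = 0.673 and 0.137). Mmp2 itself held 52 counts in all and was not tested.

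Promoter sequence of some members called in both regions was set beside these values. RefSeq promoter windows of GRCm38.p6, from 250 bases before to 50 after a start, were found for 57 of the 79 members. The letters CTTTGAA or CTTTGAT, core letters of TCF/LEF sites, were in 10.8% of the members' windows and in 8.65% of all 32851 windows. TGANTCA, the letters of AP-1 sites, was in 7.69% of the members' windows and 7.81% of all. GCGTG, the core of aryl hydrocarbon receptor sites, was in 26.2% and 32.4%. Both strands were searched; TGANTCA reads the same on both, and its first letters can be the last letters of CTTTGAA or CTTTGAT. A match is a description of letters in this window. The 120 bases before the earliest annotated start are shown for 3 members that rose and 2 that fell in both regions, so that the letters can be read beside their values, 5′ to 3′ on the gene's strand, with a matched motif in capitals:
Nid1 (chr13:13437431-13437550, plus strand, no match): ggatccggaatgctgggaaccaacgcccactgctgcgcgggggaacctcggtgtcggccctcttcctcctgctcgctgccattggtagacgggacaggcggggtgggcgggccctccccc
Itga1 (chr13:115101965-115102084, minus strand, CTTTGAA): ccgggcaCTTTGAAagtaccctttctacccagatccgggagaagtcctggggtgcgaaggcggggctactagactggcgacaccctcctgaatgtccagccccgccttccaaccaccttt
Mmp28 (chr11:83463072-83463191, minus strand, no match): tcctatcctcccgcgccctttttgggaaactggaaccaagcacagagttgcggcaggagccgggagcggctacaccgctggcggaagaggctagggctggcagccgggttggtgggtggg
Mmp7 (chr9:7691970-7692089, plus strand, TGANTCA): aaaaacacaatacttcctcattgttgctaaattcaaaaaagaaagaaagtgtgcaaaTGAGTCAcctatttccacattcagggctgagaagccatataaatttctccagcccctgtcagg
Timp3 (chr10:86300252-86300371, plus strand, GCGTG): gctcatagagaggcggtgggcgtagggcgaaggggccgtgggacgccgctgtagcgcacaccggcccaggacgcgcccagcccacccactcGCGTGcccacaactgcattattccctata

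Among the 8 windows of 6 members called higher in either region, 1 held CTTTGAA or CTTTGAT, that of Itga1. Among the 14 windows of 12 members called lower, 2 did, both of Mmp7. These 2 windows overlap and hold the same CTTTGAT match, which is counted in each, also in the share of the members' windows. The stretches shown of Nid1 and Mmp28 held none of the 4 motifs.

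The second question was whether corpus and antrum differ in these genes. In vehicle 0 of 53 members were called by edgeR's quasi-likelihood test, where 0.198% of all genes were called; 10 members had an unadjusted p under 0.05, as did 15.4% of all genes, DESeq2 called 3, where it called 3.05% of all genes, and limma-voom 0, where it called 0.13%. After inhibition edgeR called 0, where 0.0619% of all genes were called; 9 members had an unadjusted p under 0.05, as did 9.24% of all genes, DESeq2 called 2, where it called 0.922% of all genes, and limma-voom 0, where it called 0.0805%. For the difference in response between regions edgeR, DESeq2 and limma-voom each called 0, where edgeR and limma-voom called 0.00619% of all genes and DESeq2 0.0557%, and 2 members had an unadjusted p under 0.05, as did 3.95% of all genes. Groups did not overlap for 5 members higher and 5 lower in antral than in corpus vehicle, beside 9.68% and 12.8% of all genes, and for 5 higher and 2 lower after inhibition, beside 6.71% and 5.06%.

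Col1a1 and Col26a1 were the members with an unadjusted p under 0.05 for the difference in response. Col1a1, a chain of collagen I, was at 0.533, 0.510 and 0.433 CPM in corpus vehicle and 0.618, 0.385 and 0.790 CPM after inhibition, and at 1.06, 0.692 and 0.793 CPM and then 0.246, 0.224 and 0.274 CPM in antrum. It fell in antrum by 1.74 ± 0.33 on the log2 scale (edgeR adjusted p = 0.00224), a call lost without vehicle lines 8025 and 8028 (0.0549), and had a value of 0.28 ± 0.31 in corpus (adjusted p = 0.519). Col26a1 went from 1.57, 1.43 and 1.5 CPM to 2.06, 2.95 and 1.73 CPM in corpus and from 2.42, 2.04 and 2.80 CPM to 1.20, 1.64 and 1.60 CPM in antrum. Every corpus line was higher and every antral line lower after inhibition; the antral fall of 0.71 ± 0.23 (edgeR adjusted p = 0.0394) was lost when any 1 antral library but vehicle line 8026 was left out (0.0624 to 0.145). The difference in response did not pass for either gene (edgeR adjusted p = 1.00).

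The smallest adjusted p between regions belonged to Mmp7 in vehicle and to Itga1 after inhibition. Mmp7 was higher in each antral vehicle library than in any corpus vehicle library, with a log2 difference of 2.05 ± 0.44 (edgeR adjusted p = 0.0866, DESeq2 adjusted p = 0.00739). Itga1 was higher in antrum by 0.32 ± 0.08 in vehicle (edgeR adjusted p = 0.114) and by 0.47 ± 0.08 after inhibition (adjusted p = 0.0824); DESeq2 called both (adjusted p = 0.0153 and 6.89e-05).

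Corpus line 8028 stood apart for many members. It was the lowest of the 3 corpus lines in both vehicle and inhibited libraries for 31 of 53 members tested (58.5%), as it was for 27.6% of all genes tested. Line 8025 was the highest in both libraries for 27 of 53 members in corpus (50.9%, against 16.5% of all genes) and for 24 of 53 in antrum (45.3%, against 14.8%). These counts are descriptions: members of 1 library share its scaling and its cells, and they were made after the values were seen.

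Hspg2, perlecan, was lowest in corpus line 8028 in both states. It was at 124 and 118 CPM in corpus vehicle lines 8025 and 8026 but at 54.6 CPM in line 8028, and at 108, 114 and 51.2 CPM after inhibition; the antral libraries ran from 58.8 to 84.9 CPM. Lamb1, the beta chain that pairs with Lamc1, was at 34.5, 35.4 and 14.9 CPM in corpus vehicle and 17.3, 15.9 and 5.30 CPM after inhibition, against 7.09 to 17.6 CPM in antrum. In both genes line 8028 lay outside the range of its sister lines by more than the distance between them. The treatment effect on Lamb1 in corpus, -1.14 ± 0.44 (edgeR adjusted p = 0.0707), passed once lines were blocked (adjusted p = 0.000107) and without both corpus libraries of line 8028 (adjusted p = 0.0177).

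With all lines kept, edgeR called 0 members between regions in either state. Without both corpus libraries of line 8028, 8 members were called in vehicle and 9 after inhibition. That fit called 6.6% of all genes in vehicle and 14.6% after inhibition. Lama5, Itga7, Itgb5, Hspg2 and Col20a1 were then called lower in antrum in both states, and Itga1 higher in both. In vehicle Lamb1 was also called lower and Mmp7 higher. After inhibition Col2a1 and Col4a5 were lower and Nid1 higher. The log2 difference in vehicle without that line was -1.24 ± 0.25 for Lamb1 (edgeR adjusted p = 0.0269), -0.62 ± 0.12 for Hspg2 (adjusted p = 0.0224), -0.48 ± 0.12 for Lama5 (adjusted p = 0.0398) and 2.39 ± 0.48 for Mmp7 (adjusted p = 0.0199). Line 8028 held the lowest corpus values of Lamb1, Hspg2 and Lama5 in both states. Leaving it out removes that part of the spread between corpus lines from the test. The adjusted p-values of this fit therefore cannot decide whether the regions differ beyond the spread between lines.

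**Figure D4:**
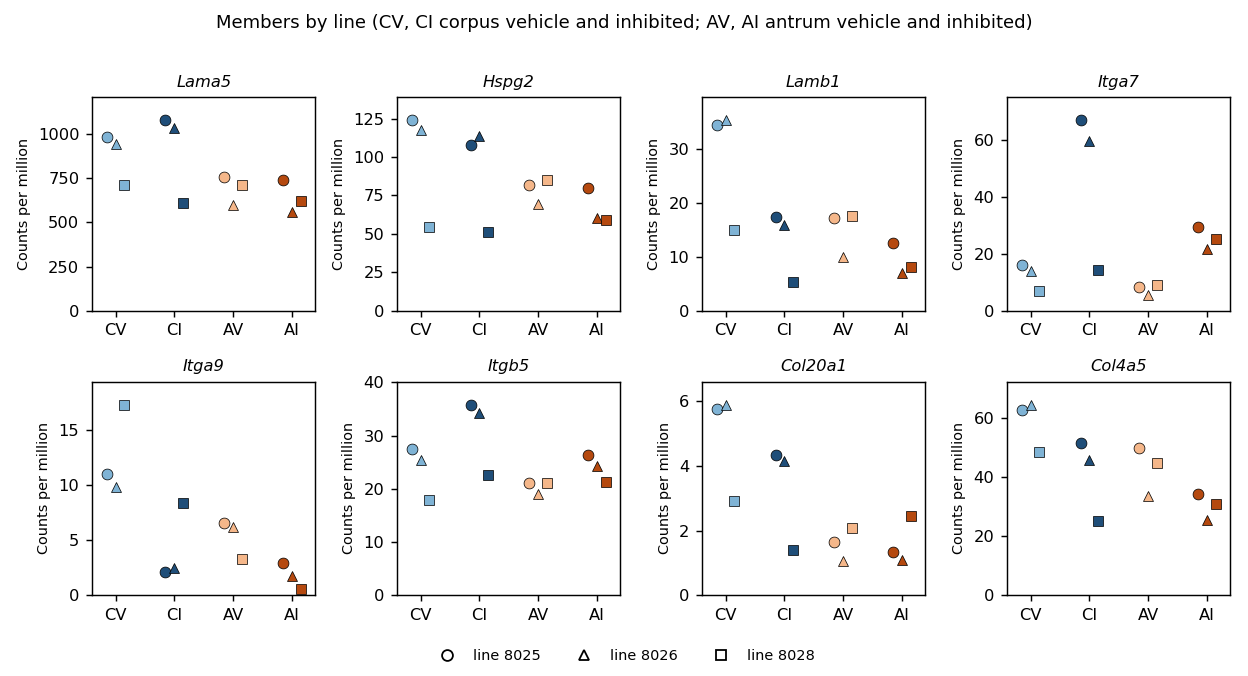
CPM (linear axes from 0) of 8 members, chosen after their values were seen, in each library by group (CV and CI, corpus vehicle and inhibited; AV and AI, antrum vehicle and inhibited); symbols mark the line. Corpus line 8028 (squares) is below the other corpus lines for Lama5, Hspg2, Lamb1, Itga7, Itgb5, Col20a1 and Col4a5 and above them for Itga9.

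Neighbouring parts of the pathway, taken from 5 lists, were read beside the members by their counts. For every list the background is that of all genes: 15.5% were called higher and 15.4% lower in corpus, and 16.3% higher and 13.4% lower in antrum. Of 24 adaptors of focal adhesions and hemidesmosomes tested, corpus had 9 rises and 2 falls, antrum 7 rises and 3 falls, with a median log2 change of 0.15 and 0.12. Plec, plectin, which ties Itgb4 to keratin filaments, rose by 0.87 and 0.59 in log2 units (edgeR adjusted p = 0.000121 and 0.00169). Tns4, a tensin of epithelial cells, fell by 1.28 and 0.98 (edgeR adjusted p = 0.00011 and 0.000633).

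Of 21 other matrix proteases and inhibitors, corpus had 10 rises and 4 falls, antrum 9 rises and 2 falls. Adamts15, a proteoglycan-cutting protease, had the largest rise, from means of 2.10 and 2.06 CPM in corpus and antral vehicle to 20.1 and 33.2 CPM, a log2 change of 3.25 ± 0.30 and 4.00 ± 0.31. Plaur, the urokinase receptor, rose by 1.31 and 1.33 (edgeR adjusted p = 4.24e-06 and 3.48e-06). Adam8 fell by 0.68 and 0.64 (adjusted p = 0.0071 and 0.0109), lost without both libraries of line 8026 in corpus (0.0687) and of line 8028 in antrum (0.099).

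Of 15 other matrix glycoproteins, corpus had 2 rises and 5 falls, antrum 3 rises and 5 falls, with a median log2 change of -0.67 and -0.44. Smoc2, a matricellular protein made by gastrointestinal stem cells, fell by 4.91 and 4.59 in log2 units (edgeR adjusted p = 0.000167 in both), and Spp1, osteopontin, an integrin ligand, by 2.39 and 2.23 (adjusted p = 3.71e-06 and 4.6e-06). Fn1, fibronectin, fell from means of 239.8 and 221.2 CPM to 83.0 and 84.2 CPM. Npnt, nephronectin, rose by 0.72 and 0.66 (edgeR adjusted p = 0.00112 and 0.00197).

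Of 16 genes of matrix processing and crosslinking, corpus had 1 rise and 3 falls, antrum 4 falls. Tgm2, a transglutaminase that crosslinks fibronectin, fell by 2.04 and 1.70 in log2 units (edgeR adjusted p = 1.5e-05 and 3.96e-05), and Bmp1, the protease that trims procollagens, by 0.94 and 1.18 (adjusted p = 0.00691 and 0.00199). Of 13 non-integrin matrix receptors, corpus had 1 rise and 3 falls, antrum 1 rise and 4 falls. Cd44, the hyaluronan receptor, fell by 1.24 and 0.84 in log2 units (edgeR adjusted p = 0.00504 and 0.0358); its antral call was lost when any 1 antral library was left out (adjusted p = 0.0596 to 0.103), and its corpus call without line 8026 (0.0523).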

How the data were processed

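RNA was measured in 12 libraries (4 groups of 3 lines). The deposited values are RSEM expected counts per gene that the authors made; RSEM 1.3.3, STAR 2.7.8a, cutadapt 2.3, FastQC 0.11.8 and the GRCm38 build are listed per the submitters' processing notes. No source used here states the strand setting or the annotation. The values were already whole numbers; 5 rows that name no gene (2 counts) were left out. Positions, exon lengths and overlaps came from GENCODE vM21, and promoter windows from RefSeq.

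Counts of all 12 libraries were scaled by TMM, filtered by filterByExpr and fitted by group with edgeR 4.0.16 (R 4.3.3) as a robust quasi-likelihood model with 8 residual degrees of freedom; p-values were adjusted by Benjamini-Hochberg over 16152 genes, with a threshold of 0.05. The fit was tried on simulated counts drawn without correlation within lines, so that this trial does not bear on the pairing of libraries. Depth differed between libraries, which bears most on members of few counts; for sparse members, group sums are given with exact counting intervals.

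Lines were not blocked in the reported fit. The same lines received both treatments within a region, and deviations from the group means correlated within lines (r = 0.157 to 0.544; at most 0.120 for other pairs), so line numbers pair those libraries. Alternatives were other scalings and filters, DESeq2 1.42.0, limma-voom (limma 3.58.1), the block, the compared libraries alone, and leaving out libraries or lines.

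Named in full were called members of at least 5 CPM, up to 10 each way per treatment comparison, and a fixed set of members. Up to 3 genes each way were named per pathway list. Itga9, Itgb8, Lama4, the collagen IX chains, Col2a1, Col4a6, Col16a1, Col26a1, Mmp17, Mmp23, Mmp24 and the members plotted by line were added after their values were seen. Members and lists were chosen with earlier results of these data known. Results that need items withheld for evaluation are not reported here.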

Additional observations from a re-analysis of the deposited data

Results flagged for a closer look

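Col26a1, a sparse collagen chain, moved in opposite directions in the regions. All 3 corpus lines were higher after Wnt inhibition and all 3 antral lines lower, and the response in antrum minus that in corpus was -1.28 ± 0.33 on the log2 scale. edgeR's quasi-likelihood test of that difference gave an unadjusted p = 0.00221 and an adjusted p = 1.00 over all genes, so it did not pass. All values lay between 1.20 and 2.95 CPM.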

How the results depend on the processing

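Counted over all members, corpus calls under inhibition went from 22 to 37 with the replicate block and to 13 to 29 when libraries or lines were left out. Corpus calls over all genes moved as well, from 4985 to 7022 with the block and to 2550 to 6888 in the leave-outs. Antral calls of members went from 25 to 36 with the block and to 13 to 23 in the leave-outs. Over all genes the antral calls went from 4794 to 6594 and to 2710 to 4207. Without antral vehicle lines 8025 and 8028, antral vehicle rested on line 8026 alone. Between regions, DESeq2 called 3 members in vehicle and 2 after inhibition, and leaving out corpus line 8028 gave 8 and 9, in a setting that called 1080 and 2386 of 16355 genes. Other leave-outs gave 0 to 7 after inhibition, the 7 without inhibited corpus line 8028, which called 1883 of 16528 genes. No alternative called a member for the difference in response. Among values not called, total-count scaling turned 5 in corpus: Itga2 to -0.094, Itgav to -0.10, Itgb1 to -0.14, Lama5 to -0.12 and Lamc1 to -0.029; upper-quartile scaling put Itgb1 at -0.0014. Leave-outs in corpus ranged from -0.025 to 0.54 for Col1a1, -0.38 to 0.20 for Hspg2, -0.0034 to 0.15 for Itga2, -0.017 to 0.17 for Itgav, -0.012 to 0.10 for Itgb1, -0.078 to 0.29 for Lama5, -0.18 to 0.11 for Mmp14 and -0.46 to 0.017 for Nid2. In antrum they ranged from -0.090 to 0.26 for Col4a1, -0.0049 to 0.20 for Itga2 and -0.38 to 0.062 for Mmp14, and without antral vehicle lines 8025 and 8028 Col4a1 was at -0.00023, Lama5 at 0.10 and Mmp14 at 0.29. The cause was not tested. No called value reversed. Of 47 treatment calls, 24 passed under every alternative in which the gene was tested. They were Itgb8 in corpus, Mmp7 in antrum, and in both regions 11 genes: Nid1, Mmp28, Itga1, Itga3, Timp3, Col9a3, Col11a2, Col14a1, Col16a1, Col27a1 and Itgb6. The block removed no member's call. Itgb8 in both regions and Col1a1 in antrum fell under the filter of at least 1 CPM in 3 libraries. Itgb8 was not tested on the 6 corpus libraries alone either, so that its corpus call was tried under 16 alternatives. Members with few counts after inhibition have fold changes limited by depth.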
